A study of Homo sapiens with 4 samples.

Results

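The 6 genes described here are ZNF37A, its pseudogene copy ZNF37BP, the paralogues ZNF33A and ZNF33B, and ZNF25 and ZNF248, all on chromosome 10 close to the centromere. They were taken by symbol from a table of 59050 genes. ZNF37A was picked because its counts differed sharply between the libraries labelled CPT2 KO and WT, and the other 5 because they are zinc finger relatives around it. Their difference between the groups is therefore given as a description, without a test. Of the 6 genes, 5 had counts and passed the filter on low counts, and ZNF248 had 0 counts in every library.

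The RNA came from HUES8, an established human embryonic stem cell line kept on Matrigel in mTeSR1 medium, and was sequenced as 4 libraries, 2 with the genotype label CPT2 KO and 2 with WT. All 4 carry the treatment label WT. The labels do not say how the knockout was made or whether it is 1 clone, nor whether replicates are separate cultures. Each p-value therefore reflects the spread among these libraries alone, and that spread may be technical. CPT2 encodes carnitine palmitoyltransferase 2 of fatty acid oxidation, and the groups are compared for what its loss does to the transcripts of these cells.

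The labels were not borne out by the CPT2 transcript. It gave 233 and 170 counts in the libraries labelled CPT2 KO, against 52 and 72 in those labelled WT (log2 fold change 1.78, SE 0.28, adjusted p in edgeR 0.0209), so every direction below is stated between libraries as labelled. Adjusted p-values are from the quasi-likelihood test, corrected by Benjamini-Hochberg over 17564 tested genes, and a gene is called where its value is under 0.05. Library totals were 20219396 and 16887789 counts in the libraries labelled CPT2 KO, against 18356754 and 20460031 in those labelled WT. WT replicate 1 stood somewhat apart: its median absolute log2 difference over tested genes was 0.253 and 0.323 to the libraries labelled CPT2 KO and 0.238 to WT replicate 2, while WT replicate 2 was 0.181 and 0.214 from the libraries labelled CPT2 KO. The 8 pluripotent stem cell markers include POU5F1, NANOG and SOX2. They summed to 9215 and 10398 CPM (counts scaled to library size) in the libraries labelled CPT2 KO. In those labelled WT the sums were 8482 and 9303 CPM. Of the 8, 0 were called in edgeR (1 at an unadjusted p under 0.05), DESeq2 or limma-voom. In CPM, 5 of the 8 lay higher in both libraries labelled CPT2 KO than in both labelled WT, and 0 lay lower in both. The share higher in both was 21.1% over all tested genes.

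KRAB zinc finger proteins are the largest family of human transcription factors. Their zinc fingers bind DNA, often in transposable elements, and their KRAB domain recruits the corepressor TRIM28, which brings histone methyltransferases, deacetylases and heterochromatin proteins. The family grew by duplication of gene clusters, so that neighbouring members are often close copies, and many members are expressed in pluripotent cells.

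The genes lie on both sides of the centromere. On GRCh38, ZNF248 (chr10:37776526-37858106, minus strand), ZNF25 (chr10:37949572-37976633, minus), ZNF33A (chr10:38010650-38065088, plus) and ZNF37A (chr10:38094334-38150293, plus) are on the short arm. ZNF37BP (chr10:42513510-42552822, minus) and ZNF33B (chr10:42574185-42638568, minus) are on the long arm. In GENCODE 29, 5 of the 6 are protein coding and ZNF37BP is a transcribed processed pseudogene. The protein coding ones encode KRAB zinc finger proteins whose DNA targets are not described here. The annotation shows a mirrored block: ZNF33A, EIF3LP3, FXYD6P2 and ZNF37A lie in this order on the short arm, with AL161931.1 between ZNF33A and EIF3LP3. ZNF37BP, FXYD6P1, EIF3LP2 and ZNF33B lie in the reverse order on the long arm, with both zinc finger genes on the minus strand.

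The sequences just before the start sites are shown for the gene whose counts differed most and for the paralogue pair that lies beside it and its copy. They are the 250 bases before the first listed start of each gene, from RefSeq on GRCh38.p14, where 5 of the 6 genes matched by symbol. Capitals in the ZNF37A sequence (chr10:38094087-38094336, plus strand) mark each copy of GGCGCGAG. Capitals in the sequences of ZNF33A (chr10:38010425-38010674, plus) and ZNF33B (chr10:42638571-42638820, minus) mark runs of at least 15 bases that the paralogues share.
ZNF37A: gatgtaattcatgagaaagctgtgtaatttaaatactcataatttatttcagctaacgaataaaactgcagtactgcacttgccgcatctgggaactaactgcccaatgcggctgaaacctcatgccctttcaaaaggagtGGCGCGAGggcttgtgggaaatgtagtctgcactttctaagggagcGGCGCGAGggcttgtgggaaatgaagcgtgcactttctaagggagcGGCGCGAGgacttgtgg
ZNF33A: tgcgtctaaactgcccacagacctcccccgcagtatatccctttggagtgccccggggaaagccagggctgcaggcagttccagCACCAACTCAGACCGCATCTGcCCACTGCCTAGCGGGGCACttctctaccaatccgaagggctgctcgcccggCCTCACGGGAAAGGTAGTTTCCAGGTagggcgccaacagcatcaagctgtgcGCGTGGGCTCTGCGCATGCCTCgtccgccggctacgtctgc
ZNF33B: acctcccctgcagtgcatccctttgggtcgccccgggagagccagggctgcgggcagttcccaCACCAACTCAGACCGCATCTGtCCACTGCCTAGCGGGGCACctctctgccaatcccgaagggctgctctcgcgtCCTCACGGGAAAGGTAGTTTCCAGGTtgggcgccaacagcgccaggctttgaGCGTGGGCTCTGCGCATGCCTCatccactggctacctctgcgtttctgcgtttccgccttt

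The ZNF37A upstream sequence holds 3 copies of GGCGCGAG, spaced 46 bases apart. The 46-base units that begin at copies 1 and 2 are identical at 43 positions. The unit that begins at copy 3 runs past the start and matches those of copies 1 and 2 at only 33 and 32 positions. Searched on both strands, GGCGCGAG (or its reverse complement CTCGCGCC) occurs at least once in 2.23% of the 250-base windows of 27303 genes, and 3 or more times in 5 of them (0.0183%). It was chosen after the sequence was read, and it is absent from the windows of ZNF33A, ZNF33B, ZNF25 and ZNF248. The ZNF37A window has 12 CG dinucleotides and 48.4% G and C, against 16 and 17 CG dinucleotides and 63.6% G and C for ZNF33B and ZNF33A. ZNF248 was close to ZNF37A, with 13 and 50.4%, and ZNF25 had 17 and 60.8%. Relative to the number expected from C and G content, CG dinucleotides were at 0.85 for ZNF37A and ZNF248. That ratio was 0.644 for ZNF33B, 0.682 for ZNF33A and 0.736 for ZNF25. The ZNF33A and ZNF33B windows align at 75.4% identity, with 4 shared runs of at least 15 bases that cover 88 bases, the longest of 26. ZNF37A aligns with the other 4 windows at 48.9% to 52.9%.

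ZNF37A was nearly silent in the libraries labelled WT and expressed in those labelled CPT2 KO. It had 193 and 181 counts in the libraries labelled CPT2 KO, against 2 and 3 in those labelled WT. The groups did not overlap, and the replicates of each group lay close together. On the CPM scale the level was 10.2 ± 0.957 CPM in the libraries labelled CPT2 KO and 0.127 ± 0.0263 CPM in those labelled WT (SD, n = 2 each). The ratio of the pooled rates was 79.4, with an exact counting interval of 33.7 to 246 that covers counting error only. The fitted log2 fold change was 6.25 (SE 0.44), a value that depends on the prior count because the counts labelled WT are so low. It ranked 9 in order of increase among 17564 tested genes. ZNF37A was chosen on this contrast and passed the filter through the libraries labelled CPT2 KO, so nothing is read from that rank. In bulk RNA, fewer cells expressing a gene and less RNA per cell cannot be told apart.

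**Figure D1:**
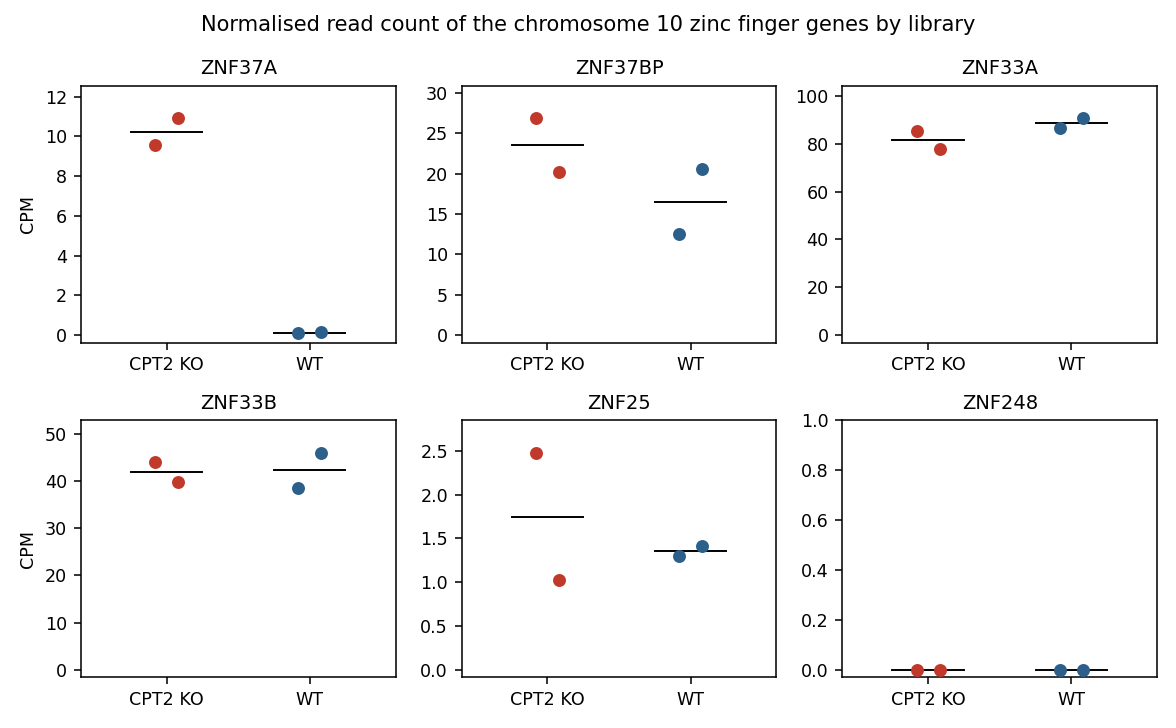
Normalised read count (CPM, linear axis) of the 6 chromosome 10 zinc finger genes, with 1 point per library and a line at each group mean (n = 2 each). ZNF37A stands at 9.55 and 10.9 CPM in the libraries labelled CPT2 KO and at 0.108 and 0.146 CPM in those labelled WT. The groups overlap for ZNF37BP, ZNF33B and ZNF25 and just fail to overlap for ZNF33A, which is lower where the label is CPT2 KO. ZNF248 is at 0.

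Sequence shared exactly with other genes makes up a small part of the ZNF37A transcripts. Its exons share 852 bases, 6.46% of their length, with AL117339.5, a gene on the same strand that had 0 counts in all 4 libraries. Of the 50-base stretches of its annotated transcripts, 8.52% also occur in transcripts of other genes, mostly AL117339.5 (6.06%) and ZNF37BP (2.16%), and at 100 bases AL117339.5 is the only gene that shares any (5.64%). For ZNF37BP the shares are 3.15% at 50 bases and 0 at 100. Whether reads with several alignments were counted is not given in the sources used here. ZNF37BP, the copy on the long arm, had counts in all 4 libraries.

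ZNF37BP had 542 and 336 counts in the libraries labelled CPT2 KO, against 230 and 424 in those labelled WT. Replicate 2 of the group labelled WT was above replicate 2 of the group labelled CPT2 KO in CPM, so the groups overlapped. The means were 23.5 ± 4.65 CPM in the libraries labelled CPT2 KO and 16.5 ± 5.74 CPM in those labelled WT (SD, n = 2 each), with a log2 fold change of 0.51 (SE 0.25). The value moved with each library left out: it was 0.29 without CPT2 KO replicate 1, 0.70 without CPT2 KO replicate 2, 0.20 without WT replicate 1 and 0.92 without WT replicate 2.

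Within the ZNF37 pair, shares of counts do not depend on how libraries were scaled. ZNF37A took 26.3% (exact 95% binomial interval 23.1% to 29.6%) and 35.0% (30.9% to 39.3%) of the ZNF37A and ZNF37BP counts in replicates 1 and 2 labelled CPT2 KO. It took 0.862% (0.105% to 3.08%) and 0.703% (0.145% to 2.04%) in replicates 1 and 2 labelled WT. ZNF37A was chosen on these counts, so the shares are a description.

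ZNF33A, the most abundant of the 6 genes, had 1722 and 1289 counts in the libraries labelled CPT2 KO, against 1598 and 1866 in those labelled WT. Its CPM were 85.2 and 77.7 in the libraries labelled CPT2 KO, against 86.6 and 90.6 in those labelled WT. The groups just failed to overlap, and the log2 fold change was -0.12 (SE 0.14). ZNF33B had 891 and 661 counts in the libraries labelled CPT2 KO, against 711 and 946 in those labelled WT. Its CPM overlapped between the groups, with 42.0 ± 3.02 CPM in the libraries labelled CPT2 KO and 42.2 ± 5.22 CPM in those labelled WT (SD, n = 2 each). The log2 fold change of ZNF33B was -0.0089 (SE 0.16).

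ZNF33A held a near-constant share of the counts of its own pair. It was 65.9% (64.0% to 67.7%) and 66.1% (64.0% to 68.2%) in the libraries labelled CPT2 KO. In those labelled WT it was 69.2% (67.3% to 71.1%) and 66.4% (64.6% to 68.1%). WT replicate 1 was the highest of the 4, and its interval overlapped those of the other 3 libraries. The pair shares 7.17% of the 50-base stretches of ZNF33A and 0.695% of its 100-base stretches, counted as exact matches. The part of their reads that could fall to either copy was not measured.

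**Figure D2:**
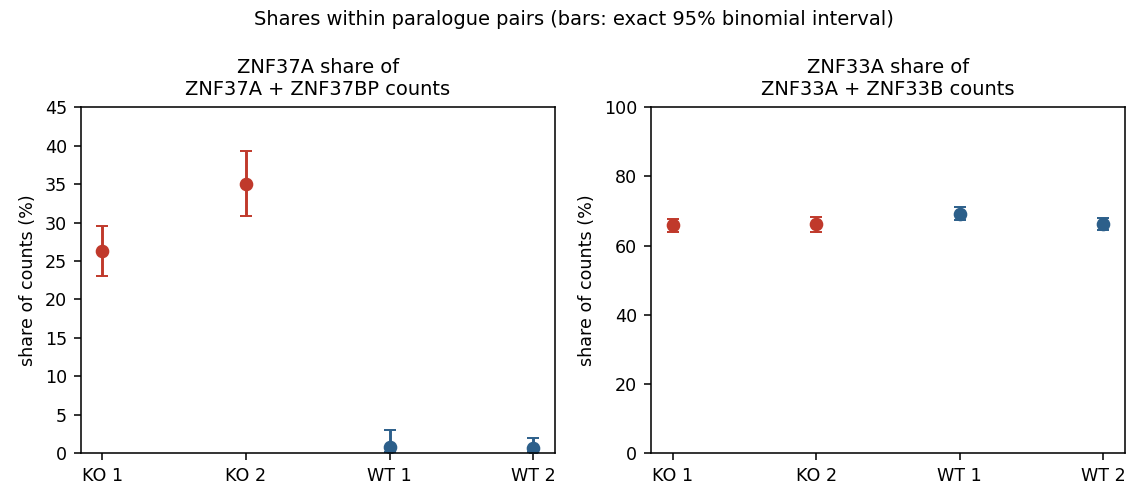
Share of counts (%) taken by ZNF37A within the ZNF37A and ZNF37BP pair (left) and by ZNF33A within the ZNF33A and ZNF33B pair (right) in each library, with exact 95% binomial intervals as bars. The ZNF37A share is 26.3% and 35.0% in the libraries labelled CPT2 KO and under 1% in those labelled WT, while the ZNF33A share lies between 65.9% and 69.2% in all 4.

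ZNF25 was sparse in every library. It had 50 and 17 counts in the libraries labelled CPT2 KO, against 24 and 29 in those labelled WT. Both values labelled WT lay between those labelled CPT2 KO, so the groups overlapped. The log2 fold change was 0.38 (SE 0.52), and its sign rested on CPT2 KO replicate 1: without that library it was -0.40, and without CPT2 KO replicate 2 it was 0.87. On the log2(CPM + 0.5) scale the replicates labelled CPT2 KO differed by 0.96 for ZNF25, against a median of 0.200 over all tested genes.

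ZNF248 had 0 counts in all 4 libraries. A count of 0 allows up to 3 counts, or 0.0396 CPM over the 4 libraries together, and 0.148 and 0.181 CPM in the libraries labelled CPT2 KO and 0.163 and 0.146 CPM in those labelled WT. Its transcripts have 3.70% of their 50-base stretches in common with other genes, nearly all with AL135791.1, an antisense gene over its start that was also at 0. In order of gene start, ZNF248 lies in a run of 14 listed genes at 0 counts, from 37297398 to 37896666 on chromosome 10. Of these, 12 are noncoding genes or pseudogenes and 2 are protein coding. LINC00993 and ANKRD30A start before the run but reach into it, to 37347031 and 37384111, and had 1 and 3 counts in all. ZNF25 after the run had 120. Of 15 protein coding ZNF genes with a unique annotated position on chromosome 10, ZNF248 was the 1 at 0, and over all chromosomes 21 of 503 were.

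Per length, the order of the levels was ZNF33A, ZNF33B, ZNF37BP, ZNF37A, ZNF25 and ZNF248 in the libraries labelled CPT2 KO. In TPM, computed here from the counts and the listed gene lengths, ZNF33A averaged 36.3 ± 3.36 TPM in the libraries labelled CPT2 KO and 43.9 ± 2.27 TPM in those labelled WT (SD, n = 2 each). ZNF33B averaged 16.9 ± 1.68 TPM in the libraries labelled CPT2 KO and 18.9 ± 0.766 TPM in those labelled WT. ZNF37BP averaged 7.71 ± 1.73 TPM in the libraries labelled CPT2 KO and 5.93 ± 1.59 TPM in those labelled WT. These 3 genes kept their order in every library, with no overlap between neighbours.
ZNF37A, at 2.60 ± 0.173 TPM in the libraries labelled CPT2 KO and 0.0356 ± 0.00446 TPM in those labelled WT, changed place with ZNF25. ZNF25 averaged 1.39 ± 0.845 TPM in the libraries labelled CPT2 KO and 1.19 ± 0.0326 TPM in those labelled WT. ZNF37A was above ZNF25 in both libraries labelled CPT2 KO and below it in both labelled WT. Even where it was expressed, ZNF37A stayed below its pseudogene copy, with 2.47 and 2.72 TPM against 8.93 and 6.49 TPM for ZNF37BP in the libraries labelled CPT2 KO.

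Counted together, the 6 genes gave 3398 and 2484 counts in the libraries labelled CPT2 KO, against 2565 and 3268 in those labelled WT. ZNF37A made up 5.68% and 7.29% of that sum in the libraries labelled CPT2 KO, against 0.0780% and 0.0918% in those labelled WT. In edgeR 1 of the 5 tested genes was called, ZNF37A, where 0.433% of all tested genes were called in either direction and 0.37% as higher. Since ZNF37A was chosen on this contrast, nothing is read from that count. ZNF37A and ZNF33A, 2 of the 5, had groups that did not overlap in CPM, which was the case for 40.9% of all tested genes.

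Genes around them gave no calls in edgeR. Leaving out ZNF487, ZNF239, ZNF485 and ZNF32, which are counted with the other ZNF genes of chromosome 10, 93 further genes were listed between 37 and 44 Mb. Of these, 65 had 0 counts in every library and 10 passed the filter. All 10 lie on the long arm, and their starts are 4.47 to 5.55 Mb from that of ZNF37A. In this window ZNF25 and ZNF33A were the only other tested genes of the short arm, so the closer surroundings of ZNF37A were hardly tested. Among those 10, 8 log2 fold changes were positive and 2 negative, with a median of 0.18 against 0.0012 over all tested genes, 0 called in edgeR (0 at an unadjusted p under 0.05) and 0 with DESeq2 or limma-voom. BMS1, a ribosome assembly factor next to ZNF33B, averaged 150.0 ± 0.192 CPM in the libraries labelled CPT2 KO and 137 ± 17.3 CPM in those labelled WT (SD, n = 2 each; adjusted p in edgeR 0.800). HNRNPF, an RNA-binding splicing regulator, averaged 431 ± 7.43 CPM in the libraries labelled CPT2 KO and 404 ± 34.5 CPM in those labelled WT (adjusted p in edgeR 0.854). RET, a receptor tyrosine kinase gene, had a log2 fold change of 0.33 (adjusted p in edgeR 0.608), and RASGEF1A, a guanine nucleotide exchange factor gene, one of -0.31 (0.647).
The small pseudogenes between the zinc finger genes of the mirrored block had few or no counts. FXYD6P2 and FXYD6P1 had 0 counts throughout. EIF3LP3, between ZNF33A and ZNF37A, had 2 and 4 counts in the libraries labelled CPT2 KO, against 4 and 7 in those labelled WT. EIF3LP2, beside ZNF33B, had 15 and 0 counts in the libraries labelled CPT2 KO, against 8 and 16 in those labelled WT. NAMPTP1, the nearest tested gene on the far side of ZNF248, had a log2 fold change of -0.35 (adjusted p in edgeR 0.699).

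**Figure D3:**
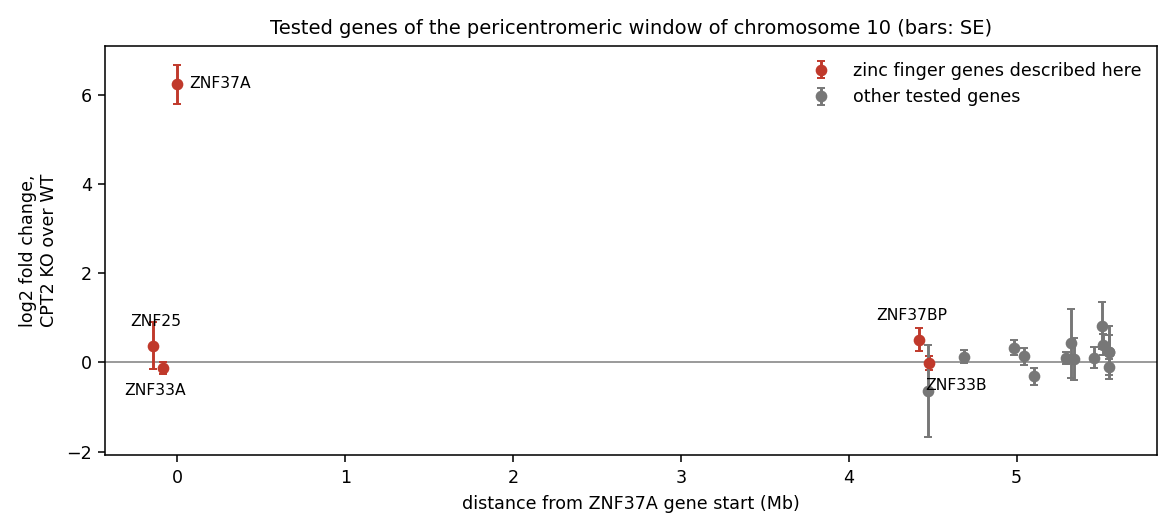
Log2 fold change (CPT2 KO over WT, bars SE) of each tested gene of the pericentromeric window against the distance of its start from that of ZNF37A (Mb). ZNF37A stands at 6.25, and its neighbours ZNF33A and ZNF25 and the genes of the long arm lie between -0.63 and 0.83.

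The other ZNF genes gave no calls with all 4 libraries. Of 505 other ZNF genes in the table, 457 were tested and 0 were called in edgeR, with 20 at an unadjusted p under 0.05 and 0 called with DESeq2 or limma-voom. Their log2 fold changes were positive for 235 and negative for 222, with a median of 0.013 and quartiles of -0.17 and 0.15, against -0.21 and 0.21 over all tested genes. They ranged from -1.66 (ZNF497, with 7 and 2 counts in the libraries labelled CPT2 KO, against 16 and 14 in those labelled WT) to 0.71 (ZNF491, with 14 and 15 counts in the libraries labelled CPT2 KO, against 7 and 12 in those labelled WT). In 455 of the 457 the change was within 1 on the log2 scale. Without WT replicate 2, where WT replicate 1 alone stands for its group, 17 were called, in a setting that called 7.27% of all tested genes.
The most abundant of them, ZNF146, ZNF770, ZNF207 and ZNF121, had log2 fold changes of 0.13, 0.044, 0.19 and -0.062 (adjusted p in edgeR 0.783, 0.957, 0.697 and 0.921). ZNF146 averaged 297 ± 8.31 CPM in the libraries labelled CPT2 KO and 272 ± 5.46 CPM in those labelled WT (SD, n = 2 each).

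**Figure D4:**
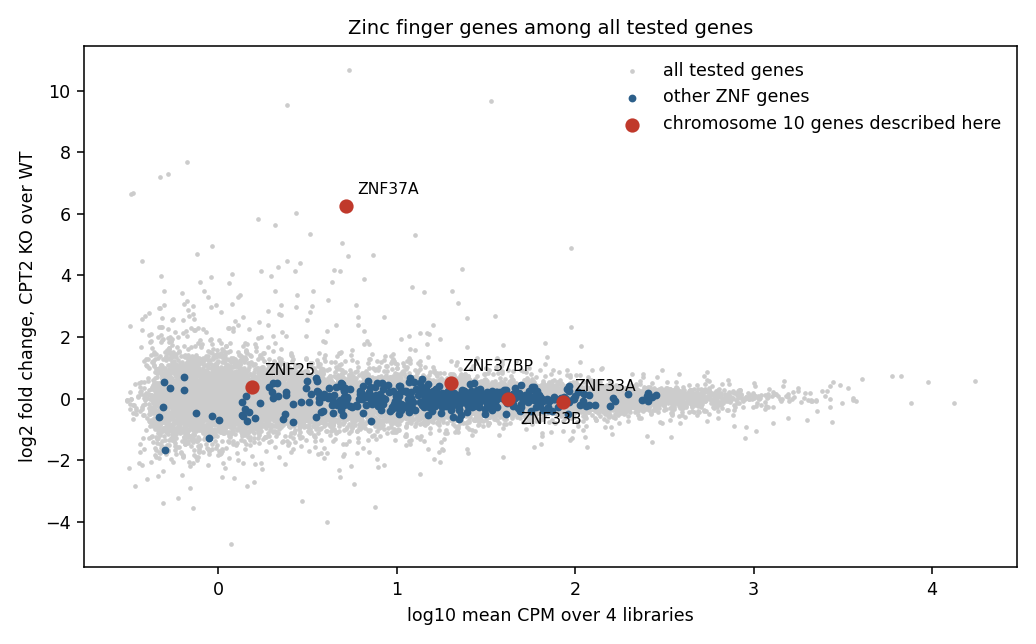
Log2 fold change (CPT2 KO over WT) against log10 mean CPM for all tested genes (grey), the 457 other tested ZNF genes (blue) and the chromosome 10 genes described here (red). ZNF37A at 6.25 lies far above the other ZNF genes, which range from -1.66 to 0.71.

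Of the 10 other ZNF genes with a unique annotated position on chromosome 10, wherever they lie, 9 were tested. Among these, 0 were called in edgeR (0 at an unadjusted p under 0.05), DESeq2 or limma-voom. Their median log2 fold change was 0.016, 5 being positive and 4 negative. ZNF518A, the most abundant, averaged 97.7 ± 1.26 CPM in the libraries labelled CPT2 KO and 98.7 ± 4.98 CPM in those labelled WT (SD, n = 2 each; adjusted p in edgeR 0.983). ZNF22, ZNF32 and ZNF239 had log2 fold changes of 0.15, -0.095 and 0.11 (adjusted p in edgeR 0.791, 0.908 and 0.922).

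Genes of the KRAB corepressor machinery were tested in full, 20 of 20, with 0 called in edgeR (2 at an unadjusted p under 0.05) and 0 with DESeq2 or limma-voom. The median log2 fold change was -0.018, with 10 positive and 10 negative. TRIM28, the corepressor that KRAB domains bind, averaged 590.0 ± 45.3 CPM in the libraries labelled CPT2 KO and 607 ± 35.0 CPM in those labelled WT (SD, n = 2 each; log2 fold change -0.04, adjusted p in edgeR 0.951). HDAC2, a deacetylase, had a log2 fold change of 0.0031 (adjusted p in edgeR 0.996). CBX3 and CBX5, heterochromatin proteins, had log2 fold changes of 0.23 and -0.42 (adjusted p in edgeR 0.627 and 0.414). SETDB1, the histone methyltransferase that TRIM28 recruits, had one of -0.51 (adjusted p in edgeR 0.342) and was named after its value was seen, with CBX5 the other gene at an unadjusted p under 0.05. Without WT replicate 2, 3 of the 20 were called, against 7.27% of all tested genes in that setting.

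Zinc finger genes known for binding transposable elements or imprinted loci gave 0 calls among 9 tested in edgeR (2 at an unadjusted p under 0.05), DESeq2 or limma-voom, and their median log2 fold change was 0.068. ZNF91 and ZNF93, which repress retrotransposons, had log2 fold changes of -0.035 and 0.063 (adjusted p in edgeR 0.962 and 0.919), and ZNF649 one of 0.14 (0.777). ZNF445, a guardian of imprints, had one of -0.41 (adjusted p in edgeR 0.464). ZFP57, another imprint regulator and named after its value was seen, averaged 1.22 ± 0.368 CPM in the libraries labelled CPT2 KO and 0.257 ± 0.0200 CPM in those labelled WT (SD, n = 2 each; adjusted p in edgeR 0.289).

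The tested genes nearest to ZNF37A in their profile over the 4 libraries were not zinc finger genes. Likeness was the root mean square distance between log2(CPM + 0.5) values centred on each gene's mean. The added 0.5 compresses low values, so the distance also depends on a gene's level. The genes were picked for likeness over these same 4 libraries, so their shared pattern follows from the choice. The lack of other genes with a ZNF symbol follows too, as none that was tested had a log2 fold change above 0.71. The nearest was FGF8 (distance 0.267), a growth factor gene that is also on chromosome 10, with 214 and 142 counts in the libraries labelled CPT2 KO, against 4 and 7 in those labelled WT. LEFTY2 (0.296), a Nodal antagonist, had 220 and 161 counts in the libraries labelled CPT2 KO, against 8 and 8 in those labelled WT. C9orf64 (0.308) had 257 and 147 counts in the libraries labelled CPT2 KO, against 0 and 0 in those labelled WT.
EBF2 (0.355), a transcription factor gene, PCDHGC3 (0.391), a protocadherin gene, and AL161449.2 (0.420), a long noncoding RNA, followed. In each of these 6 genes replicate 1 labelled CPT2 KO was above replicate 2 in CPM. ZNF37A ran the other way, with 9.55 CPM in replicate 1 and 10.9 CPM in replicate 2. That order rests on library scaling, as the raw counts were 193 and 181. On the log2(CPM + 0.5) scale the difference was 0.18, below the median of 0.200 over all tested genes. With a pseudocount of 1 in place of 0.5, 3 of the 6 were still among the nearest 6, namely FGF8, LEFTY2 and C9orf64. Of all genes listed, 3 had at most 5 counts in the libraries labelled WT together and at least 100 in each labelled CPT2 KO, ZNF37A, C9orf64 and CER1, and 0 showed the reverse. These limits were set after the counts of ZNF37A were known.

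**Figure D5:**
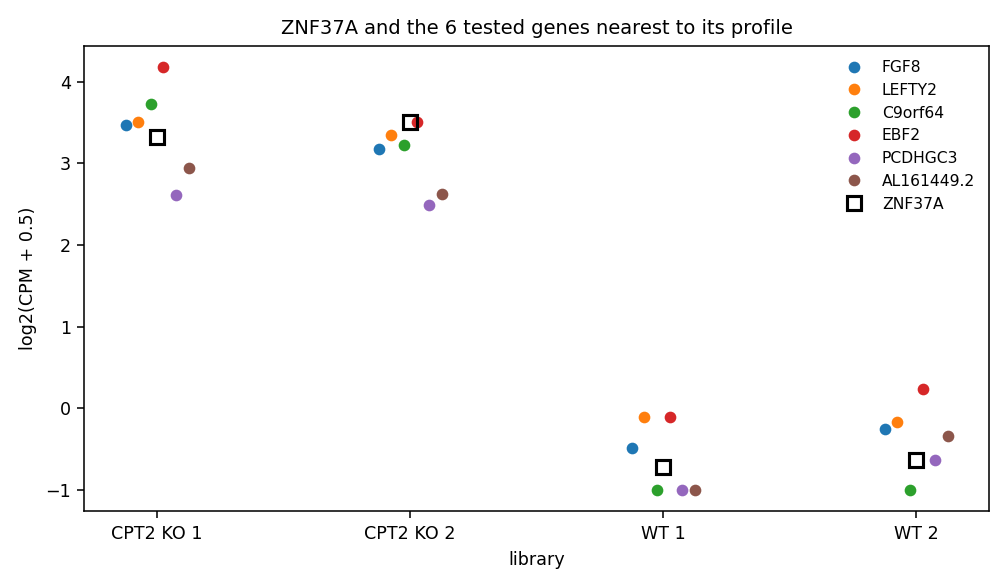
Log2(CPM + 0.5) in each library for ZNF37A (open squares) and the 6 tested genes with the nearest profile (coloured points). All 7 genes lie high in both libraries labelled CPT2 KO and low in both labelled WT, which follows from how the 6 were picked. ZNF37A is the gene whose CPT2 KO replicate 2 lies above replicate 1, by 0.18 on this scale.

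Markers of mesendoderm and endoderm, EOMES and MIXL1 among them, lay higher in both libraries labelled CPT2 KO than in both labelled WT, 8 of 8. The share over all tested genes was 21.1%, but only 6 of the 8 were tested, so the bases differ. TBXT, GSC, CER1 and FOXA2 had at most 0.488 CPM in any library labelled WT. These 4 passed the filter through the libraries labelled CPT2 KO, which favours that direction, also among calls. The 8 markers summed to 257 CPM in replicate 1 and 43.1 CPM in replicate 2 of the libraries labelled CPT2 KO, against 3.69 and 3.54 CPM in those labelled WT. Of the 6 tested, 0 were called in edgeR (5 at an unadjusted p under 0.05), 5 were called higher with DESeq2, which called 0.848% of all tested genes higher, and 0 were called with limma-voom. SOX17 and GATA6 were at 0 in both libraries labelled WT and did not pass the filter. The replicates labelled CPT2 KO differed widely in this sum, while ZNF37A had 9.55 CPM in replicate 1 and 10.9 CPM in replicate 2. The part of these markers in the ZNF37A difference was not tested. Of the other marker lists, edgeR and DESeq2 called 2 of 5 neuroectoderm genes, SOX1 and SIX6, which were lower where the label is CPT2 KO, and limma-voom called 0. Over all tested genes 0.0626% were called lower with edgeR and 0.262% with DESeq2. The rest of the list, PAX6, OTX2 and NES, went the other way, with log2 fold changes of 0.96, 1.23 and 0.36, and was not called. The list summed to 422 and 348 CPM in the libraries labelled CPT2 KO, against 294 and 308 CPM in those labelled WT. Most of that sum was NES, with 398 and 337 CPM in the libraries labelled CPT2 KO, against 277 and 295 CPM in those labelled WT. The 6 fibroblast genes summed to 448 and 434 CPM in the libraries labelled CPT2 KO, against 476 and 501 CPM in those labelled WT. THY1 and COL1A2 made up most of that sum, and COL3A1, DCN and LUM were at or near 0. THY1 had 231 and 239 CPM in the libraries labelled CPT2 KO, against 284 and 280 CPM in those labelled WT. COL1A2 had 187 and 161 CPM in the libraries labelled CPT2 KO, against 163 and 187 CPM in those labelled WT. The 6 trophoblast and amnion genes summed to 6.53 and 6.57 CPM in the libraries labelled CPT2 KO, against 4.72 and 5.39 CPM in those labelled WT, with HAND1 at 0 throughout.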

How the data were processed

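Raw read counts per gene symbol were deposited by the authors for 4 libraries, with gene lengths, per the file headers. Per the submitters' processing notes, HISAT2 2.1.0 and featureCounts 1.6.4 were used with the build hg38 (GRCh38). The sources used here do not state the strand setting, the annotation release or the treatment of reads with several alignments.

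From the counts, 17564 of 59050 genes passed filterByExpr of edgeR by group. CPM used the summed counts of those genes, scaled by TMM. Groups were compared in edgeR 4.0.16 (glmQLFit and glmQLFTest, R 4.3.3, robust estimation, group as the only term), with Benjamini-Hochberg adjustment over all tested genes and a threshold of 0.05. Log2 fold changes are CPT2 KO over WT. Alternatives are in the closing section (DESeq2 1.42.0, limma 3.58.1). The fit was tested on simulated counts, with changed genes drawn from those above a CPM limit. It recovered 17.6% of 1.5-fold, 76.9% of 2-fold and 99.5% of 4-fold changes, with 3.66% false calls. Changes of 1.5-fold were mostly missed, so a list with 0 calls may still hold such changes.

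Exact intervals are at 95% and, like the floor of 3 counts, cover counting error only. The share of short stretches common to several genes was counted, as exact matches only, over GENCODE 29 transcripts on both strands. Genes without a unique position in GENCODE 29 by symbol, ZNF503 among them, are in no count by position. Table lengths equal GENCODE 29 exon lengths for ZNF37A, ZNF37BP, ZNF33A and ZNF248 and differ by 2 and 13 bases for ZNF33B and ZNF25. The genes and lists were chosen with earlier results of these data known. Named genes are the 6 members, CPT2, genes that overlap or neighbour them, the 6 nearest profiles, and the 4 most abundant and any called genes of each list, with exceptions stated. Sequences of the proteins were not used here.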

Additional observations from a re-analysis of the deposited data

How the results depend on the processing

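The count of genes called was 76 (65 up and 11 down, CPT2 KO over WT) and lay between 73 and 78 with other scalings or the stricter filter of 1 CPM in 2 libraries. It was 469 (279 and 190) with no low count filter, 195 (149 and 46) with DESeq2 and 30 (28 and 2) with limma-voom. With each library left out it ranged from 51 to 1338, the highest without WT replicate 2, and it was 226 without WT replicate 1; a lone library is then assumed to vary like the other group. With the replicate number as a block it was 312 (204 and 108). Same-numbered libraries deviated together with a correlation of 0.219 over tested genes, but with 2 pairs and no label that ties them the numbers were not taken to pair the libraries.

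The log2 fold change of ZNF37A was positive in 12 of 12 alternatives, from 6.06 (limma-voom) to 6.47 (without WT replicate 2). It ranged from 0.20 to 0.92 for ZNF37BP, from -0.19 to -0.054 for ZNF33A, from -0.13 to 0.12 for ZNF33B and from -0.40 to 0.87 for ZNF25. For the other 5 lists, counts with each library left out ranged from 0 to 17 for all other ZNF genes and from 0 to 3 for corepressor genes, and stayed at 0 for the other 3. In the alternatives that leave out no library, all 5 lists had 0 called genes. With 17 to 50 counts per library ZNF25 allows no firm statement.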
